A study of Homo sapiens with 2 samples.

Results

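The 110 probe sets described here measure histone genes and were taken from 54675 on the array by gene name, with earlier results of these data known. They carry 78 histone gene symbols of 21357 in the annotation. A probe set was kept if an annotated gene symbol, single or among several, began with H1-, H2AC, H2BC, H3C, H3-, H4C, H2AZ, H2AX, H2AJ or MACROH2A, or with an older form of these names. The cells were OECM1, a line established from a head and neck carcinoma, with 1 culture stably transfected with pmCherry-let7i, which expresses the microRNA let-7i, and in 1 culture that carries the pmR-mCherry empty vector. Both cultures grew in RPMI medium with fetal bovine serum, and the labels do not say whether either is a clone or a pool. With 1 array per group no difference has a replicate check, no p-value is given, and genes are described by size. Values are MAS5 signal intensities on a linear scale. A signal below the median of its array, 79.5 for let-7i and 88.0 for the empty vector, was treated as below a floor, and ratios are log2 values of let-7i over empty vector, centred on the median of all probe sets measured on both arrays.

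Histones package DNA: an octamer of H2A, H2B, H3 and H4 forms the nucleosome core, and H1 binds the linker between cores. Most histone genes sit in clusters, are transcribed in S phase together with DNA replication, and give short transcripts that end in a stem-loop in place of a poly(A) tail, although some of them also give polyadenylated forms. Histone variants such as H2A.Z, macroH2A and H3.3 are encoded by scattered genes with polyadenylated transcripts and are deposited outside S phase as well. The labels do not state which primer started the labelling, so both transcript forms of a clustered gene cannot be told apart here.

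All 78 symbols were found in RefSeq in the same form. Clustered genes accounted for 62 symbols and 69 probe sets, variants for 12 symbols and 37 probe sets, pseudogenes for 3 probe sets, and the antisense transcript H1-10-AS1, taken in by its name, for 1. Coding regions of clustered histones of one family are nearly identical, and 28 of the 110 probe sets carried more than 1 symbol, up to 14 for H4. A total of 20 symbols had no probe set of their own. H2BC12L is counted with the clustered genes by its name, although RefSeq places it on chromosome 21. Of the remaining clustered probe sets, 57 belong to genes on chromosome 6, 6 to genes on chromosome 1, and 5 to H4 genes spread over chromosomes 1, 6 and 12.

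The mature let-7i that the vector is meant to supply is printed with its seed, bases 2 to 8, in capitals, because the array does not measure it. With it stand promoter windows (250 bases before to 50 after a gene start) of H2BC5, H2BC12 and H4C8, whose probe set was the one past 2-fold. H2BC5 and H2BC12 code for H2B, with log2 ratios of 0.96 and 0.29 for the H2BC5 probe sets and 0.09 for H2BC12. A link between these ratios and the letters of the promoter windows was not tested. The capitals there mark the octamer ATTTGCAT, a site in H2B promoters bound by the factor POU2F1, the CCAAT box and TATAAA, each on either strand, with overlapping matches merged. The sequences are from RefSeq, build GRCh38.p14: let-7i at chr12:62603691-62603712 on the plus strand, H2BC5 at chr6:26157871-26158170 on the plus strand, H2BC12 at chr6:27146809-27147108 on the minus strand and H4C8 at chr6:26285485-26285784 on the minus strand.
hsa-let-7i-5p: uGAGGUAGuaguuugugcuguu
H2BC5 promoter: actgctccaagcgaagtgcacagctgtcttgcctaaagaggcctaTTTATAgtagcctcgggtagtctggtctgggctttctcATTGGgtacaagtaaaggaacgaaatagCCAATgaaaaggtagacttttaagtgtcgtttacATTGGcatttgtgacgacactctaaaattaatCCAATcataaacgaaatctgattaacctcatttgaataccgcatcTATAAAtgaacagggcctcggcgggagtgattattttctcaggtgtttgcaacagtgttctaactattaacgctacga
H2BC12 promoter: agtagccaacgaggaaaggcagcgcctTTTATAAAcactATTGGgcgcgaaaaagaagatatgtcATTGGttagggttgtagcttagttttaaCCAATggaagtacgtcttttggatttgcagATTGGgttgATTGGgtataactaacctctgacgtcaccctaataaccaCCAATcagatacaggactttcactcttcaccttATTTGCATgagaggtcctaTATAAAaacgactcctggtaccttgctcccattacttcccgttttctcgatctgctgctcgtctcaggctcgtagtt
H4C8 promoter: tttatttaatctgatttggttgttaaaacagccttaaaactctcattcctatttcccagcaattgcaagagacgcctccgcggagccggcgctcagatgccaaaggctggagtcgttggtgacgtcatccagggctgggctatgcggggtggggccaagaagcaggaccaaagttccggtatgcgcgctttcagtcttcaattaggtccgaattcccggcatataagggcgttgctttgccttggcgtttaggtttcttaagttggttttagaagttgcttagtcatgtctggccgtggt

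Taking the first start RefSeq lists for a gene, the octamer stood in 13 of 16 clustered H2B promoters and in 8 of 13 clustered H2A promoters, many of which face an H2B gene across a shared stretch, against 1.80% of 27305 promoters of all genes. It stood in 0 of 13 H4, 0 of 6 H1 and 1 of 8 H3 promoters of clustered genes, and in 1 of 12 promoters of variants. A CCAAT box was present in all 16 H2B, 13 H2A, 8 H3 and 6 H1 promoters, in 3 of 13 H4 promoters and in 9 of 12 of the variants, against 35.7% of all. TATAAA was found in 12 of 16 H2B, 9 of 13 H2A, 5 of 8 H3, 7 of 13 H4 and 3 of 6 H1 promoters and in 5 of 12 of the variants, against 11.95% of all. These matches are letters in a window and no measure of binding. No annotated probe set of its own was at hand for POU2F1.

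The 2 arrays had a common trimmed mean of 500.1 and a Pearson correlation of log2 signals of 0.981 across 25566 probe sets measured on both, where probe sets are not independent replicates. Of the squamous and epithelial markers with a probe set of their own, 4 of 7 reached the floor, EPCAM (6690 with let-7i and 10912 with the empty vector), CDH1, ITGB4 and DSP, while the keratins KRT5 and KRT14 and the plakophilin PKP1 lay under it on both arrays. Of 10 fibroblast markers, 4 reached the floor (POSTN, DCN, FAP and COL1A1), DCN being 2.00-fold and POSTN at least 3.51-fold higher, and their list summed to a signal of 1642 with let-7i and 1005 with the empty vector. Of 8 leukocyte markers CD3E and ITGAM reached it (sums of 368 and 452), as did PECAM1 of 6 endothelial markers (489 and 481). The part of these markers in the histone values was not tested.

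Clustered histone genes were mostly somewhat higher with let-7i, and the median of the variants was near 0. Among clustered probe sets measured on both arrays, 29 of 37 had a higher and 8 a lower signal with let-7i, with a median log2 ratio of 0.21, a 1.16-fold higher level, and middle values (25th to 75th percentile) of 0.06 to 0.39. Of the variant probe sets 16 of 28 were higher and 12 lower; their median was 0.05, with middle values of -0.03 to 0.17. Over all probe sets measured on both arrays 50% were higher by construction, with a median of 0 and middle values of -0.21 to 0.18. The difference between the 2 medians was 0.17 on the log2 scale, and no test of it was possible. The 37 clustered probe sets are not 37 genes, since several carry the same symbols. With 1 probe set per gene or group of genes the difference was 0.08, with 20 of 27 clustered and 7 of 8 variant probe sets higher. It was also smaller, 0.06, with the floor at the 25th percentile, where dim clustered probe sets enter and 37 of 61 of them were higher, beside 23 of 30 of the variants.

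**Figure D1:**
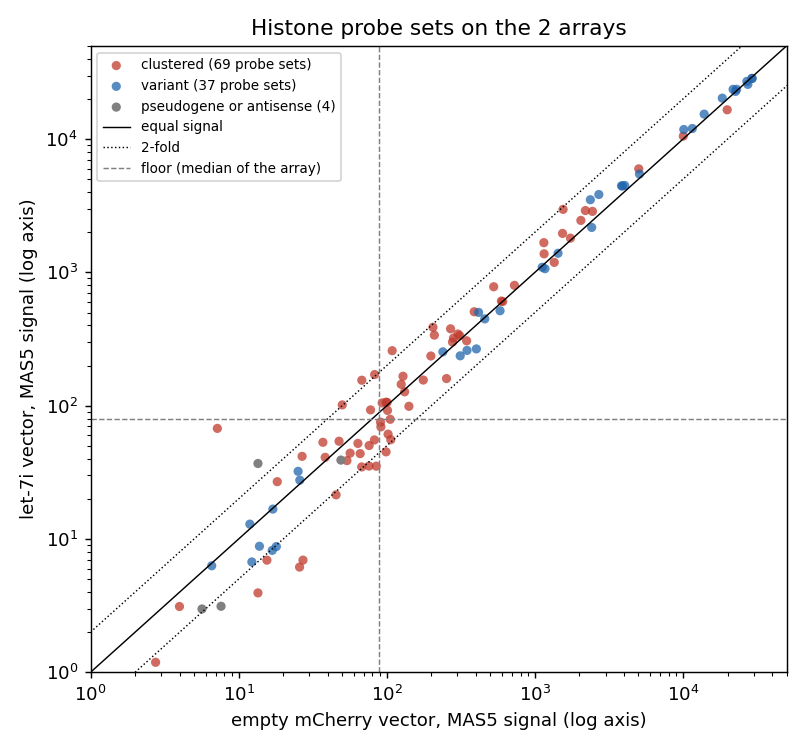
Signal of each of the 110 histone probe sets with the let-7i vector (vertical, log axis) against the empty mCherry vector (horizontal, log axis), with the floors of 79.5 and 88.0 dashed and 2-fold lines dotted. Bright points lie near the line of equal signal. Among probe sets above both floors 1 clustered probe set, of H4C8, lies beyond 2-fold.

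Past 2-fold, the share of histone probe sets was near that of probe sets in general. Calls were made among probe sets that reached the floor on either array, as 75 of the 110 did (68.2%, against 53.2% of all probe sets). One was at least 2-fold higher (1.33%), against 1% of all 29041 probe sets past the floor, and 0 were at least 2-fold lower, against 1.27%. At 1.5-fold, 8 of 75 were higher (10.7%, against 4.43%) and 1 lower (1.33%, against 6.69%). Of the higher ones 7 were clustered and 1 was a variant. Counting only probe sets above the floor on both arrays, 6 of 65 were at least 1.5-fold higher, against 4.04%, and 1 lower, against 5.84%. At 2-fold the same counting gave 1 higher, against 0.814%, and 0 lower, against 1.03%. At 3-fold, 0 of 75 were higher and 0 lower, against 0.21% and 0.162% of all. These counts rest on 2 cultures and on probe sets that partly share genes.

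**Figure D2:**
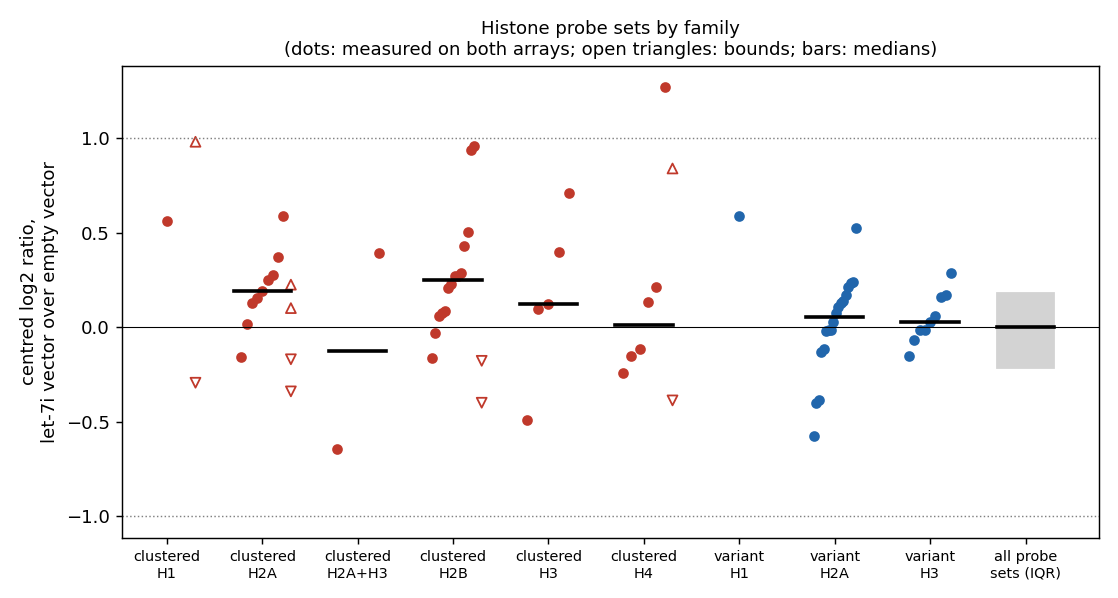
Centred log2 ratio of let-7i over empty vector for each histone probe set by class and family. Dots are probe sets measured on both arrays, open triangles are bounds of those above the floor on 1 array, thick bars are medians, dotted lines mark 2-fold, and the grey box spans the 25th to 75th percentile of all probe sets (-0.21 to 0.18). The medians of clustered H2A (0.19) and H2B (0.25) lie above that of all probe sets, and those of clustered H4 (0.01), variant H2A (0.05) and variant H3 (0.03) lie near 0. The variant H1 column holds 1 dot, H1-10 (0.59).

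Linker histones are considered first. H1-2, a clustered gene for one of the main somatic linker histones, had a signal of 1671 with let-7i and 1150 with the empty vector, 1.48-fold higher (log2 ratio 0.56). H1-3, another somatic linker histone, had 171 with let-7i and 82.8 with the empty vector, below the floor there, and was at least 1.98-fold higher. Its bound passed 2-fold after lowess centring (1.10) and quantile normalization (1.08) on the log2 scale. The H1-6 gene, which is active in testis, had 45 with let-7i and 98.9 with the empty vector in 1 of its 2 probe sets, at least 1.23-fold lower. H1-1, H1-4, H1-5 and the other H1-6 probe set were under the floor on both arrays. Among the scattered linker genes H1-10, coding for H1.10 (also called H1X), had 3508 with let-7i and 2369 with the empty vector, 1.5-fold higher (0.59), the highest ratio of any variant. H1-7 and H1-8, genes of the male and female germ line, were under the floor.

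Error had to be judged from the probes alone. The SD of 1 probe set was taken from the 2 brightest measured probe sets of each gene with at least 2. It was 0.25 on the log2 scale over 5807 genes, 0.34 for the dimmest of 4 equal signal bins and 0.15 for the brightest. It covers probe noise without any variation between cultures. These bins, with edges at mean signals of 403, 776 and 1643, are not those used for direction below. Against the SD of its own signal range, H1-10 stood at 3.81 times and H1-2 at 2.70 times. In all, 8 of 37 clustered and 2 of 28 variant probe sets were higher by more than 2 such SDs, against 6.36% of all 25566 probe sets measured on both arrays. Of either class 0 were lower by as much, against 6.59% of all.

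Clustered H2A probe sets were higher in 8 of 9 cases measured on both arrays, with a median of 0.19 and a range of -0.16 to 0.59. H2AC6, a clustered H2A gene, had 1961 with let-7i and 1537 with the empty vector, 1.30-fold higher. A probe set shared by 6 H2A genes (H2AC11, H2AC12, H2AC13, H2AC15, H2AC16 and H2AC17) had 780 with let-7i and 527 with the empty vector, 1.5-fold higher, but a second probe set with the same 6 symbols had 335 and 311, 1.09-fold higher. H2AC18 and H2AC19, a duplicated pair on chromosome 1, share 3 probe sets. Their log2 ratios were 0.25, 0.28 and 0.19, the brightest having 2870 with let-7i and 2448 with the empty vector. H2AC25, also on chromosome 1, had 799 and 728 (0.16). H2AC17 by its own probe set was the lower one, with 156 with let-7i and 176 with the empty vector (-0.16), and H2AC14 had 604 and 606 (0.02). The probe sets of H2AC4, H2AC8, H2AC15 and H2AC16 reached the floor on 1 array at most, and their bounds lay between -0.34 and 0.23.

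Clustered H2B probe sets gave the highest median of any family with more than 1 measured probe set, 0.25, with 12 of 14 higher. The gene H2BC5 had 2971 with let-7i and 1551 with the empty vector in one probe set, 1.95-fold higher (0.96), and 2455 and 2044 in the other, 1.22-fold higher (0.29). Both readings were higher with let-7i, but the SD of the pair of log2 ratios was 0.48, above the probe SD of 0.15 at such signals. H2BC11 and H2BC8 share 2 probe sets, with 387 with let-7i and 205 with the empty vector in one (1.92-fold higher) and 236 and 198 in the other (1.21-fold higher). The probe set of H2BC11 alone was dim, at 55.6 with let-7i and 106 with the empty vector, at least 1.32-fold lower, so probe sets naming this gene pointed both ways. H2BC21, on chromosome 1, had 377 with let-7i and 270 with the empty vector, 1.42-fold higher, and H2BC6 had 2910 and 2194, 1.35-fold higher. H2BC12L had 5981 with let-7i and 5028 with the empty vector (0.27). H2BC12 had 10529 with let-7i and 10050 with the empty vector (0.09). A probe set shared by H2BC4, H2BC6, H2BC7, H2BC8 and H2BC10 had 1807 with let-7i and 1739 with the empty vector (0.08), and 2 others with these symbols had log2 ratios of 0.06 and 0.21. H2BC4 alone gave 0.23. The lower ones were H2BC9, with 1189 with let-7i and 1352 with the empty vector (-0.16), and H2BC3, with 127 and 132 (-0.03). H2BC15 had 69.4 with let-7i, under the floor, and 91.3 with the empty vector, at least 1.13-fold lower.

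Clustered H3 genes were read mainly by dim probe sets. A probe set shared by 10 H3 genes of chromosome 6 had 338 with let-7i and 210 with the empty vector, 1.64-fold higher (0.71). A second probe set with the same 10 symbols had 26.9 and 18.2, under the floor on both arrays, and has no ratio. H3C8 had 507 with let-7i and 389 with the empty vector, 1.32-fold higher, and H3C2 had 106 and 100, close to the floor. H3C6 had 98.9 with let-7i and 141 with the empty vector in one probe set (-0.49) and 106 and 98.8 in the other (0.13), so its 2 probe sets disagreed in direction. In 2 probe sets the annotation joins H3 genes with the neighbouring H2AC7. The one naming H3C4 and H2AC7 had 160 with let-7i and 253 with the empty vector, 1.56-fold lower (-0.64), the lowest ratio of any measured histone probe set. With the floor at the 65th percentile its let-7i signal lay below the floor, and -0.24 was a bound. The other, naming 10 H3 genes and H2AC7, had 166 with let-7i and 129 with the empty vector (0.39).

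Clustered H4 genes showed no common direction, with 3 of 6 measured probe sets higher and a median of 0.01. H4C8, one of many genes for the same H4 protein, had 259 with let-7i and 109 with the empty vector in its probe set past 2-fold, 2.41-fold higher (1.27). A second H4C8 probe set had 155 with let-7i and 67.8 with the empty vector, below the floor there, and was at least 1.79-fold higher. Both are dim, and with the floor at the 65th percentile the first gave a log2 bound of 0.18 and the call was lost. The brightest H4 probe set, shared by 14 H4 genes with H4C8 among them, had 16589 with let-7i and 19885 with the empty vector, 1.18-fold lower (-0.24). Of the other 4 probe sets with these 14 symbols, 2 were measured, at -0.15 and 0.13, and 2 were under the floor. H4C11 had 345 with let-7i and 302 with the empty vector (0.21), H4C4 had 92.2 and 101 (-0.11), and H4C5 had 79.0, just under the floor, and 106, at least 1.31-fold lower.

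Clustered genes were mostly higher on both chromosomes that hold histone clusters with measured probe sets of their own. Probe sets of chromosome 6 genes were higher in 22 of 28 cases with a median of 0.21, and those of chromosome 1 genes in 5 of 5 with a median of 0.25. Most of these 5 carry the same gene pair, H2AC18 and H2AC19, so they are not separate genes. Probe sets with 1 histone symbol were higher in 16 of 21 cases (median 0.21) and those with several in 13 of 16 (median 0.20). A larger gap separated probe sets whose ID ends in _s_at or _x_at, which can match several transcripts. They were higher in 19 of 21 cases with a median of 0.25, and the others in 10 of 16 with a median of 0.14. No test of this difference was made.

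H2A variants split around 0, with 10 of 18 measured probe sets higher and a median of 0.05. H2AZ1 codes for H2A.Z, found at promoters and enhancers, and had 22792 with let-7i and 22657 with the empty vector in one probe set (0.03) and 23619 and 21798 in the other (0.14). H2AZ2, its close relative, had 5467 with let-7i and 5084 with the empty vector in its brightest of 4 probe sets, which ranged from -0.11 to 0.23. H2AX codes for the H2A that is phosphorylated around DNA breaks, and had 12011 with let-7i and 11566 with the empty vector (0.08). Its other measured probe sets gave -0.13 and 0.11. These 3 genes thus stayed within 1.18-fold either way in every measured probe set.

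H2AJ, a mammalian H2A variant, was read in opposite directions by its 4 probe sets. The bright pair had 4489 with let-7i and 4042 with the empty vector (0.17), and 3840 and 2704 (0.53, 1.44-fold higher). The dim pair had 260 with let-7i and 348 with the empty vector (-0.40), and 237 and 313 (-0.38). The SD among the 4 log2 ratios was 0.45, against a probe SD of 0.15 at bright and 0.34 at dim signals. MACROH2A1 codes for macroH2A1, which carries a large non-histone domain and is common on the inactive X chromosome and on repressed genes. It had 11794 with let-7i and 10128 with the empty vector in its brightest probe set (0.24) and 4453 and 3902 in the next (0.21). Its middle probe sets had 1092 and 1121 (-0.02), and 448 and 459 (-0.01), and the dimmest measured one had 267 with let-7i and 403 with the empty vector (-0.57, 1.49-fold lower). The remaining 2 were under the floor, as was MACROH2A2, with 12.9 with let-7i and 11.9 with the empty vector.

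H3.3 is made by H3-3A and H3-3B, which code for the same protein, and 8 probe sets carry both symbols, some with the pseudogene H3P6 or the microRNA gene MIR4738 besides. Among these 8, 4 were higher and 4 lower, with log2 ratios from -0.15 to 0.17 and an SD of 0.11. The brightest had 28546 with let-7i and 29278 with the empty vector (-0.01), and the one farthest below 0 had 516 and 582. H3-3A by a probe set of its own had 501 with let-7i and 417 with the empty vector, 1.22-fold higher (0.29). The testis gene H3-4 was under the floor, with 27.6 with let-7i and 25.9 with the empty vector.

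**Figure D3:**
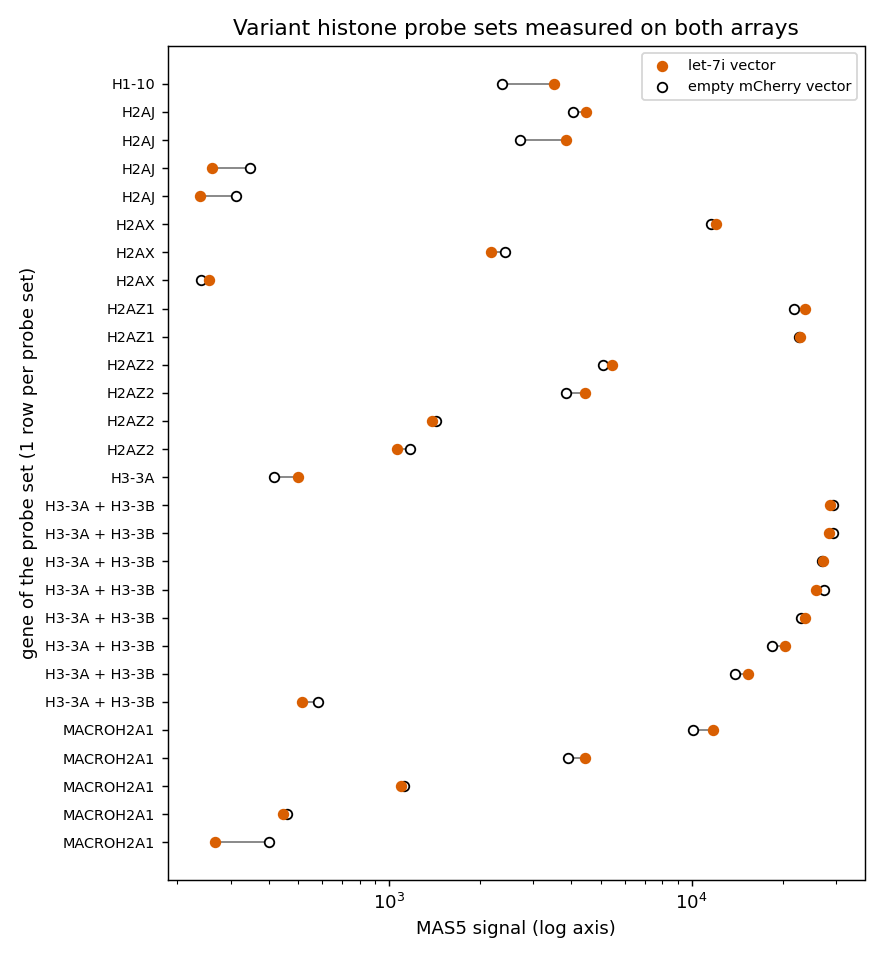
MAS5 signal (horizontal, log axis) of the 28 variant probe sets measured on both arrays, 1 row per probe set, with let-7i as filled and the empty vector as open circles. H1-10 is displaced to the right with let-7i, the 4 H2AJ rows run in both directions, and the shared H3-3A and H3-3B rows nearly coincide.

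Direction went along with signal on these arrays. In 4 equal bins by mean signal of all probe sets measured on both, 39.8% of the dimmest were higher with let-7i, 46.0% of the next, 53.1% of the third and 61.1% of the brightest. In the brightest bin, mean signals of 1459 and more, 8 of 9 clustered and 14 of 18 variant probe sets were higher, with medians of 0.27 and 0.13, against 0.05 for all. In the third bin the counts were 6 of 7 clustered and 0 of 4 variants, and in the next 8 of 9 and 2 of 6. In the dimmest bin 7 of 12 clustered probe sets were higher, and no variant fell there. Lowess centring, which removes a trend with signal, gave medians of 0.24 for the clustered and -0.01 for the variant probe sets, with 31 of 37 and 14 of 28 higher.

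**Figure D4:**
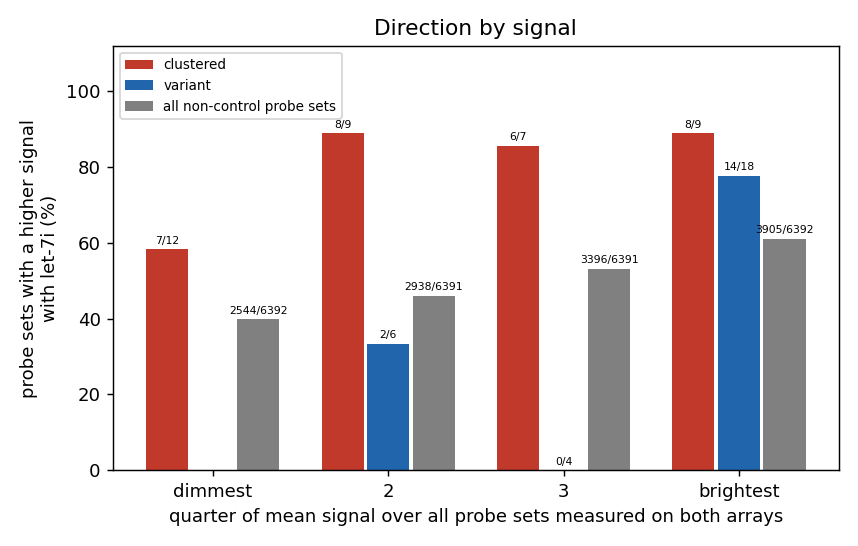
Share of probe sets with a higher signal with let-7i (vertical, percent) by bin of mean signal, 4 bins of equal size (horizontal) for clustered histone, variant histone and all non-control probe sets, with counts above the bars. The clustered share lies above that of all probe sets in each bin, from 7 of 12 in the dimmest to 8 of 9 in the brightest, and no variant probe set lies in the dimmest.

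A further 35 histone probe sets were under the floor on both arrays and have no ratio. They were 22 clustered and 9 variant probe sets, the 3 pseudogenes and H1-10-AS1, with signals from 1.19 to 67.5 with let-7i and from 2.75 to 84.9 with the empty vector. Those of clustered genes included H3C1, H3C3, H3C7, H3C11, H4C1, H4C9, H4C13, H2BC13, H2BC14, H2BC17 and the testis gene H2BC1. The widest gap among them was in H3C11, with 67.5 with let-7i and 7.18 with the empty vector, and no fold is given.

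Genes that make, process and place histones were set beside these values, each by its brightest probe set. Of 13 factors for transcription, processing and decay of clustered histone mRNA, all were measured, and 7 were higher and 6 lower. Their median was 0.00, and 0 were past 1.5-fold. The highest were ZNF473, a zinc finger protein that works with the U7 particle in cutting histone pre-mRNA, with 527 with let-7i and 364 with the empty vector (1.47-fold higher), and LSM10, a subunit of that particle, with 2253 and 1603 (1.43-fold higher). SLBP, which binds the stem-loop, had 4686 with let-7i and 5465 with the empty vector, 1.15-fold lower, and UPF1, a helicase of mRNA decay, was 1.18-fold lower, but its 2 measured probe sets gave -0.24 and 0.13. The transcriptional activators NPAT (771 and 808, -0.05) and CASP8AP2 (1092 and 1238, -0.16) differed little.

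Of 27 histone chaperones and exchange factors, 13 were higher, 14 were lower and the median was -0.02. SRCAP, a remodeller that exchanges H2A for H2A.Z, had 174 with let-7i and 287 with the empty vector, 1.62-fold lower, but its 3 probe sets ran from -0.70 to 0.70. UBN2, of the HIRA complex that deposits H3.3, was 1.40-fold lower at dim signals (169 and 241). CHAF1A, the large subunit of the factor that places H3 and H4 behind the replication fork, was 1.30-fold lower (1612 and 2129). The 3 measured CHAF1A probe sets ran from -0.38 to -0.06. TONSL, which binds new H4, was 1.27-fold lower (399 and 513). CENPA, the centromeric H3 that the name rule does not take, had 1733 with let-7i and 1615 with the empty vector (0.12). Among 14 histone genes outside the rule it was the one of 3 with a probe set of its own that reached the floor.

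Cell cycle genes, set beside the clustered histones because these are made in S phase, had medians near 0. Of 34 S phase genes 11 were higher and 23 lower (median -0.06), against 54.4% higher and a median of 0.03 over the brightest probe sets of 11139 genes. ORC6, a subunit of the origin recognition complex, had 7666 with let-7i and 4140 with the empty vector, 1.88-fold higher, and the lowest were CCNE1 (-0.55), CDC45 (-0.42) and CCNE2 (-0.41). Of 20 genes of G2 and mitosis 12 were higher and 8 lower (median 0.03), with a range of -0.16 for NUSAP1 to 0.20 for UBE2C. AURKB, a mitotic kinase, had 0.19 and BIRC5, its partner survivin, -0.15, but the 4 measured BIRC5 probe sets ran from -0.15 to 0.18. The difference between these lists and the histones was not tested.

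**Figure D5:**
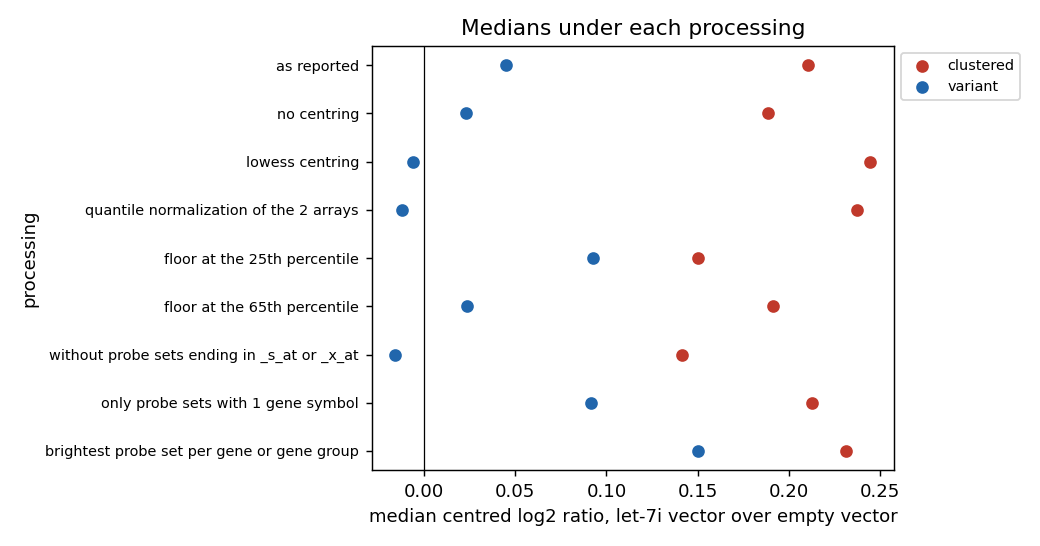
Median centred log2 ratio (horizontal) of clustered and variant histone probe sets measured on both arrays under each way of processing (rows). The clustered median lies to the right of the variant median in each row, between 0.14 and 0.24, and the variant median lies between -0.02 and 0.15.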

How the data were processed

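Total RNA was labelled as biotinylated cRNA, per the labels' protocols, from 1 culture per group. The deposited values are intensities from the MAS5 algorithm, as the authors' processing notes list it. No source used here gives its version or settings. Scaling each array to a common mean removes any difference in total RNA, and the table used here holds no detection calls. Genes were named through the platform annotation (41097 of 54675 probe sets with 1 symbol, 1801 with several, 11777 unlisted). The 62 control probe sets stayed out of centring.

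Signals below the 50th percentile of their array were set to it, which makes a ratio a lower bound. Ratios below the floor on both arrays were not computed. The centring shift was -0.02 on the log2 scale. Classes follow the symbols: H2AC, H2BC, H3C, H4C and H1-1 to H1-6 were clustered and the rest variants. Named are the 4 highest and 4 lowest ratios of each clustered family and of the variants, all probe sets of the main variants past the floor and any member past 2-fold. Of each gene list the 4 largest differences are named, with NPAT, SLBP, CASP8AP2 and CENPA. The members and the lists were chosen with earlier results of these data known. Promoter and microRNA sequences came from RefSeq tables of GRCh38.p14. The procedure was tested on simulated data with planted changes of 3-fold and more in brighter probe sets. That run does not bear on changes as small, or signals as dim, as most of those described here. The number of arrays limits the precision. Software versions were Python 3.11.15, NumPy 2.4.6, pandas 2.3.3, SciPy 1.17.1, statsmodels 0.14.6, Matplotlib 3.10.9.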

Additional observations from a re-analysis of the deposited data

How the results depend on the processing

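The clustered median stayed above 0 and above the variant median in all 9 settings run, from 0.14 to 0.24, but the size of the difference did not hold. Nor did the share of probe sets higher keep that order. With 1 probe set per set of symbols 20 of 27 clustered and 7 of 8 variant probe sets were higher. With the floor at the 25th percentile the counts were 37 of 61 and 23 of 30. For medians, a move larger than the probe SD over the square root of the number of probe sets is given here. That yardstick takes probe sets as independent, although several share genes, and holds no variation between cultures. It only sorts the settings and is no measure of error. Lowess centring and quantile normalization gave variant medians of -0.0063 and -0.012, differences of 0.251 and 0.25, and 2 probe sets at least 2-fold higher (H4C8 and the bound of H1-3). At a floor of the 25th percentile, medians were 0.150 and 0.093, the difference 0.057, and 5 probe sets were at least 2-fold higher (H1-3, H2AC15, H3C11 and both of H4C8) and 4 lower (H1-6, H2BC14, H4C1 and H4C9). No share of all probe sets past 2-fold is at hand under another floor or centring. These counts can therefore not be set against the general rate, and a lower floor admits dim signals. A floor at the 65th percentile, leaving out IDs ending in _s_at or _x_at, and a 3-fold threshold each gave 0 higher, and a 1.5-fold threshold gave 8 higher and 1 lower. Without those IDs the medians were 0.142 and -0.016. With 1 probe set per set of symbols the variant median was 0.150 and the difference 0.081. Of 62 named probe sets, 0 moved by more than their probe SD without centring, after lowess centring or after quantile normalization. With the lower floor 4 did (away from 0). With the higher floor 2 did (towards 0) and 45 did not, and the rest of the 62 were left without a ratio. No paired analysis was possible because each group has 1 array. Dim signals limit most clustered probe sets.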
